A study of Mus musculus with 4 samples.

Results

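The genes examined were 9 members of the insulin-like growth factor (IGF) system, taken by symbol from 21090 genes in the table. They were the ligands Igf1 and Igf2, the receptor Igf2r and the binding proteins Igfbp2, Igfbp3, Igfbp4, Igfbp5, Igfbp6 and Igfbp7. All 9 were found, and their values over 4 RNA-seq libraries were compared. Each library came from a different mammary tumor cell line, with 1 library per line. By the study's description, all 4 lines carried activated Pik3ca and mutant Trp53 alleles, switched on by Cre recombinase under the MMTV promoter. In that description they were derived from a primary mouse mammary tumor that had metastasized to lung. The controls (n = 2) were the parental 307 cells and 307 cells with a vector control. The S100a4 knockouts (n = 2) were lines that had received a lentivirus with Cas9 and a guide RNA against exon 3 or against exon 2 of S100a4, which encodes a small protein that binds calcium, followed by puromycin selection. The title of the exon 2 knockout names 308 cells and the other 3 titles name 307 cells, so the starting cells and the knockout cannot be told apart in that library. Whether each line was grown from 1 cell is not stated in the labels. No age of the mouse is given there.

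In the IGF system, IGF1 and IGF2 are secreted ligands that act through the tyrosine kinase receptor IGF1R, with signalling to PI3-kinase and Akt. IGF2R carries no kinase. It binds IGF2 and delivers it to lysosomes, and it also sorts enzymes tagged with mannose 6-phosphate. The IGF binding proteins are secreted carriers that hold the ligands outside the cell, where proteases can cut them and free the ligand. In the mammary gland this system is known for its part in duct growth and in the loss of secretory cells after lactation.

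Levels are RPKM as deposited by the authors, that is, reads divided by the length of a gene and by the total reads of its library. Since whole reads could be recovered from the RPKM values, the reads behind each value are given, with 95% exact Poisson intervals that cover counting error only. Reads in genes ranged from 14683508 to 20516079 per library. S100a4, the edited gene, had an RPKM of 3576 (parental) and 4741 (vector) in the controls and of 1136 (exon 3) and 1105 (exon 2) in the knockouts, and its adjusted p in limma was 0.0731 (log2 difference -1.88, SE 0.31). Its RNA was thus lower in both knockouts, and the change was past the 0.05 threshold in some of the alternatives only. Mesenchymal or fibroblast markers were the most abundant of 5 marker lists, with 9 of 11 at a mean RPKM of at least 1. Their summed RPKM was 2921 to 4777 in the controls and 2389 to 2619 in the knockouts, with Lum at 0 in all 4 libraries. Vim was the largest part of that sum (2418 parental, 2060 vector, 1362 exon 3, 1721 exon 2). Vim, Col3a1 and Pdgfra were below both controls in both knockouts, as were 31.2% of all tested genes. For Fn1, Col1a1, Col1a2, Pdgfrb and Acta2 both knockouts lay between the controls, and Dcn and Thy1 had no single direction. The list thus did not move as 1. Of 8 luminal markers only the keratins Krt8 and Krt18 passed a mean RPKM of 1 (summed RPKM of the list 34.6 to 130 in the controls and 75.0 to 107 in the knockouts). None of 4 basal markers did so, and the summed RPKM of that list was at most 0.498. The 5 endothelial markers summed to at most 0.443, with Emcn at 0. The summed RPKM of 6 leukocyte markers was 3.54 to 4.93 in the controls and 11.6 to 13.2 in the knockouts. Cd68 was the only leukocyte marker at a mean RPKM of at least 1, and Emr1 and Cd3e were at 0 in all libraries. The labelled mammary tumor origin was therefore accompanied by keratin RNA and by abundant mesenchymal RNA. In bulk libraries, fewer cells of a type and less RNA per cell cannot be told apart.

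Of the 9 members, 3 reached a mean RPKM of at least 1 and were tested among 10871 genes, namely Igfbp4, Igfbp6 and Igfbp7. The other 6 were below it in every library, with a highest value of 0.735. In order of mean RPKM the members ran from Igfbp4 (355) and Igfbp7 (351), whose ranges over the libraries overlapped and whose order turns on the mean of log2(RPKM + 1), through Igfbp6, Igf2r, Igf2, Igfbp3, Igf1 and Igfbp2 to Igfbp5. The binding protein RNA in these cells was thus almost entirely that of Igfbp4, Igfbp6 and Igfbp7, whereas the ligands were represented by a few reads.

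**Figure D1:**
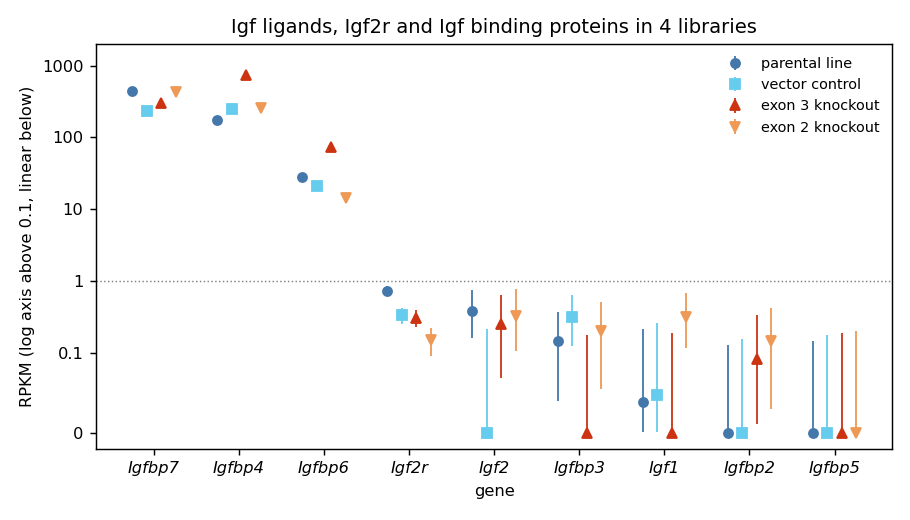
RPKM of the 9 members in each of the 4 libraries on an axis that is logarithmic above 0.1 and linear below it, with 95% exact Poisson intervals from the recovered reads and a dotted line at an RPKM of 1. Igfbp4, Igfbp6 and Igfbp7 lie above the line in all 4 libraries and the other 6 members below it.

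Both ligands were near the limit of detection. Igf1 (chr10:87858265-87937042, plus strand, GRCm38) encodes the ligand that liver and stroma make under growth hormone. Each control had 1 read of it, the exon 3 knockout 0 and the exon 2 knockout 6. Its highest RPKM was 0.319 (95% interval 0.117 to 0.694), in the exon 2 knockout. Igf2 (chr7:142650766-142666816, minus strand) encodes the ligand of fetal growth and is expressed from the paternal allele. Parental cells had 8 reads of it (RPKM 0.379) and the vector control 0, while the exon 3 knockout had 4 (0.252) and the exon 2 knockout 5 (0.330). The 0 in the vector control allows an RPKM of up to 0.175, taken as 3 reads. The parental line, with the most Igf2 reads, and the vector control, with none, are both controls, so the spread between controls covers both knockouts. Both ligands together had 9 reads in parental cells, 1 with the vector, 4 for exon 3 and 11 for exon 2. The antisense gene Igf2os overlaps Igf2 in the annotation, and without a stated strand setting its reads cannot be told apart from those of Igf2. No difference between knockouts and controls was detectable for either ligand at this depth.

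The receptor Igf2r was low and differed between libraries within each group. Igf2r (chr17:12682406-12769664, minus strand, coding length 7452 bases) was at an RPKM of 0.735 in the parental line (171 reads, 95% interval 0.629 to 0.853) and 0.333 in the vector control (63 reads, 0.256 to 0.426). The knockouts had 0.303 for exon 3 (53 reads, 0.227 to 0.396) and 0.149 for exon 2 (25 reads, 0.0966 to 0.220). The parental line was above the other 3 libraries and the exon 2 knockout below the other 3, each by more than counting error. The vector control and the exon 3 knockout overlapped in their intervals. Both knockouts were below both controls, but the difference between the 2 controls was larger than that between the vector control and the exon 3 knockout. Of the genes tested, to which Igf2r does not belong, 31.2% had both knockouts below both controls. Igf2r is overlapped by the antisense gene Airn, whose reads could not be told apart from its own here.

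The 3 abundant binding proteins differ in what they bind and where they are known from. Igfbp4 (chr11:99041244-99054392, plus strand, coding length 765 bases) encodes a small carrier best known as an inhibitor of IGF action that the protease pregnancy-associated plasma protein A cuts. Igfbp6 (chr15:102144362-102149511, plus strand, coding length 717 bases) encodes a carrier that prefers IGF2 to IGF1. Igfbp7 (chr5:77349240-77408041, minus strand, coding length 942 bases) encodes a matrix-bound relative that holds IGFs weakly and is abundant in vessels and stroma. Igfbp5 (chr1:72857932-72874884, minus strand) encodes a carrier that rises in the mammary gland after weaning. The promoter windows of these 4 genes are shown because 3 were the abundant members and the fourth was listed at 0. Each is RefSeq sequence of GRCm38.p6, from 250 bases before to 50 bases after a transcription start annotated there, on the strand of the gene and read 5' to 3'. Capitals mark matches, on either strand, to the TATA box TATAAA, the CCAAT box CCAAT, the GC box GGGCGG, the E-box CACGTG or the AP-1 site TGANTCA.
Igfbp4, chr11:99040994-99041293, plus strand: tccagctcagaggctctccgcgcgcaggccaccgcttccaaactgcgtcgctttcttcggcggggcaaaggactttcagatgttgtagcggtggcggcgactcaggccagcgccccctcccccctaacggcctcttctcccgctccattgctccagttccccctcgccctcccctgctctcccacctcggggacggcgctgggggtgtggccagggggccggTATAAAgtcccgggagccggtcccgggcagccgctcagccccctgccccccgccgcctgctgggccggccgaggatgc
Igfbp6, chr15:102143936-102144235, plus strand: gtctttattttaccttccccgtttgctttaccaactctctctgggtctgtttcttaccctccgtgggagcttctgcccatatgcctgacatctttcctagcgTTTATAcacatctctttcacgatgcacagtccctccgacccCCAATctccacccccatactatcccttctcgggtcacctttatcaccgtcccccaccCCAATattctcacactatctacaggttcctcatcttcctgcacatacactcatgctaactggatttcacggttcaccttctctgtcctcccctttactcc
Igfbp7, chr5:77407996-77408295, minus strand: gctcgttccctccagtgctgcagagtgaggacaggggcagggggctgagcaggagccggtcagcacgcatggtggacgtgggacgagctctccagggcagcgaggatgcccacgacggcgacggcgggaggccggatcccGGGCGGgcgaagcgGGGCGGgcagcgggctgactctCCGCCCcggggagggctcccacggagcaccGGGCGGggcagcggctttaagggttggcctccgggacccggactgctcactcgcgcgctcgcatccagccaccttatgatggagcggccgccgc
Igfbp5, chr1:72874816-72875115, minus strand: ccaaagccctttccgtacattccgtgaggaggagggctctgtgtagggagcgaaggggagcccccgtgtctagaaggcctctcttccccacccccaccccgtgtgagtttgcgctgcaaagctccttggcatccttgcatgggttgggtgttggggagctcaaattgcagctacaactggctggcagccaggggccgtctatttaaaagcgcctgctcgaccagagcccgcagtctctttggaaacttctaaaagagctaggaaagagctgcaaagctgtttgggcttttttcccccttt

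The windows of Igfbp4 and Igfbp6 had no motif in common at a like position. The Igfbp4 window held TATAAA at 28 bases before the start and none of the other 4 motifs. The Igfbp6 window held the TATA letters on the opposite strand at 148 bases before the start, and CCAAT at 107 and 50 bases before it. These distances are from the RefSeq start of that window. The window ends at 102144235, before the gene start at 102144362 given above, so the 2 annotations differ for Igfbp6. The Igfbp7 window held 4 GC boxes, between 110 and 44 bases before the start, and the Igfbp5 window held none of the 5 motifs. No capitals overlap. Over 32851 RefSeq windows of this length, 13.6% held TATAAA, 37.4% CCAAT, 35.7% GGGCGG, 7.15% CACGTG and 7.81% TGANTCA, on either strand. Among windows of the genes tested, the shares of the 3 motifs found here were 6.55% for TATAAA, 38.2% for CCAAT and 64.7% for GGGCGG. The GC content of the windows was 71.3% for Igfbp4, 49.7% for Igfbp6, 73.3% for Igfbp7 and 56.3% for Igfbp5, against a median of 52.7% over all windows. All 9 members had a window, with 13 windows in all.

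Igfbp4 was highest in the exon 3 knockout. Among the controls its RPKM was 177 in parental cells (4238 reads) and 250 with the vector (4863 reads), and among the knockouts 738 for exon 3 (13249 reads) and 256 for exon 2 (4404 reads). The exon 3 knockout was thus 4.16-fold above the parental line, 2.95-fold above the vector control and 2.88-fold above the other knockout, while the exon 2 knockout and the vector control were nearly level. The mean was 214 ± 51.6 (SD, n = 2) in controls and 497 ± 341 (SD, n = 2) in knockouts. On the log2(RPKM + 1) scale knockouts and controls differed by 1.04 (SE 0.44, adjusted p 0.238 in limma), which did not pass the threshold. Its unadjusted p was 0.0373. In limma, 5.32% of the genes tested were higher at an unadjusted p under 0.05 and 13.8% lower. Igfbp4 was the only one of the 3 tested members at that level and none was lower. With no filter its unadjusted p in limma was 0.122. That of Igfbp2, with at most 3 reads in a library, was then 0.0262. By the adjusted p none of the 3 members was called in either direction, against 0% of tested genes called higher and 0.0184% called lower (2 genes). The result depended on single libraries. The log2 difference was 1.80 without the exon 2 knockout, 0.28 without the exon 3 knockout and 1.29 without the vector control.

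Igfbp6 went to opposite sides of the controls in the 2 knockouts. Its RPKM among the controls was 28.0 in parental cells (626 reads) and 20.9 with the vector (380 reads), and that of the knockouts was 73.9 for exon 3 (1244 reads) and 14.2 for exon 2 (228 reads). The exon 3 knockout was 2.64-fold above the parental line and 3.54-fold above the vector control, and the exon 2 knockout was the lowest of the 4. The exon 3 knockout was 5.22-fold above the exon 2 knockout, the widest range of any member on the log2 scale (2.31). The mean was 24.4 ± 5.01 (SD, n = 2) in controls and 44.0 ± 42.3 (SD, n = 2) in knockouts, and the log2 difference was 0.42 (SE 0.58, adjusted p 0.707 in limma). That difference has no single direction, since it was 1.57 without the exon 2 knockout and -0.73 without the exon 3 knockout. Of the genes tested, 7.88% had one knockout above both controls and the other below both, as Igfbp6 did.

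Igfbp7 was the most abundant member in the parental line and in the exon 2 knockout. The controls had an RPKM of 442 in parental cells (12994 reads) and 236 with the vector (5639 reads), and the knockouts had 302 for exon 3 (6682 reads) and 425 for exon 2 (9004 reads). Both knockouts lay between the 2 controls, which differed by 1.87-fold. The mean was 339 ± 146 (SD, n = 2) in controls and 364 ± 87.1 (SD, n = 2) in knockouts, with a log2 difference of 0.15 (SE 0.36, adjusted p 0.842 in limma). The sign of this difference turned under quantile normalization, under the correction for GC content and length, and without the vector control or the exon 2 knockout. Igfbp7 is overlapped by the antisense gene Gm34648, whose reads could not be told apart from its own here.

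**Figure D2:**
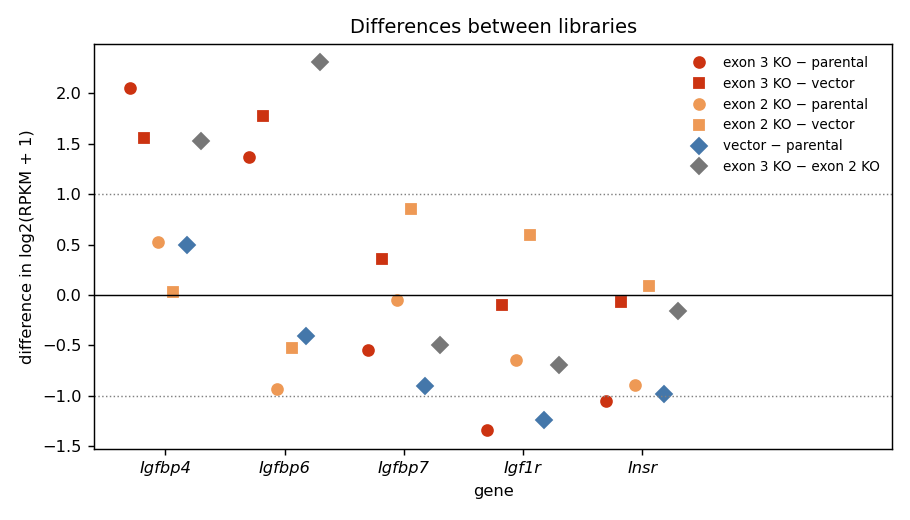
Differences in log2(RPKM + 1) of the 3 tested members, Igf1r and Insr for each knockout minus each control, the vector control minus the parental line, and the exon 3 minus the exon 2 knockout, with dotted lines at a 2-fold difference. For Igfbp4 the exon 3 knockout is 2.05 and 1.56 above the controls and the exon 2 knockout 0.53 and 0.03 above them, while Igfbp6 has both signs.

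Igfbp4 was the only one of the 3 members with both knockouts above both controls, and none had both below. In all tested genes these shares were 21.9% above and 31.2% below. The separation of Igfbp4 was narrow, with an RPKM of 256 in the exon 2 knockout against 250 in the vector control, and it was lost under quantile normalization and under the correction for GC content and length. No member was at least 2-fold higher or lower in all 4 pairs of a knockout and a control, against 0.267% of tested genes higher and 1.73% lower. By a rule chosen after the values were seen, Igfbp4 and Igfbp6 were both at least 2-fold higher in the exon 3 knockout than in each of the other 3 libraries, as were 0.294% of tested genes (32 genes, these 2 included). The median log2 difference of the 3 members was 0.42, against -0.08 over all genes tested.

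**Figure D3:**
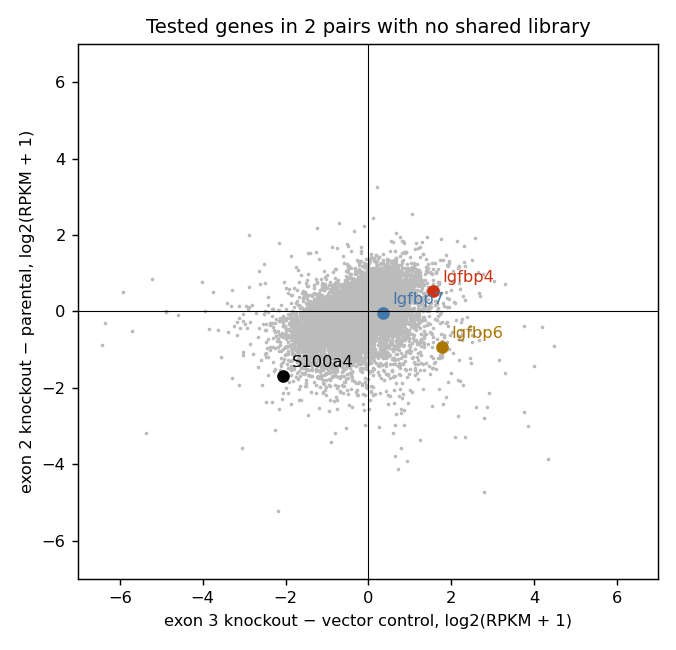
Difference in log2(RPKM + 1) of the genes tested (grey points) in 2 pairs with no shared library, the exon 3 knockout minus the vector control on the horizontal axis and the exon 2 knockout minus the parental line on the vertical axis, with the 3 members and S100a4 marked. Igfbp4 lies at 1.56 and 0.53, Igfbp6 at 1.78 and -0.93 and Igfbp7 at 0.36 and -0.054.

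The 3 members had a high GC content, with 64.2% of the coding sequence of Igfbp4, 62.9% of Igfbp6 and 63.8% of Igfbp7, against a median of 53.0% in tested genes. Tested genes within 2 percentage points of these members had a median log2 difference between knockouts and controls of 0.22 (Igfbp4, 441 genes), 0.22 (Igfbp6, 679 genes) and 0.23 (Igfbp7, 508 genes). After each library was corrected for GC content and length, the log2 differences were 0.78 for Igfbp4, 0.16 for Igfbp6 and -0.093 for Igfbp7, with adjusted p-values of 0.457, 0.928 and 0.930 in limma. Cd68, a lysosomal gene of macrophages, was also higher in both knockouts, and its part in these values was not tested. The other leukocyte markers were at or near 0, as given above.

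Among the tested genes nearest to Igfbp6 in their pattern were Fam213b and Nudt17, by the Euclidean distance between centred log2(RPKM + 1) values over the 4 libraries (0.20 and 0.54). Fam213b, which encodes a prostamide and prostaglandin F synthase, was at an RPKM of 1.11 (parental) and 0.650 (vector) in the controls, 5.34 for exon 3 and 0.0734 for exon 2. Like Igfbp6, it was highest in the exon 3 knockout and lowest in the exon 2 knockout. Its RPKM differed between the knockouts by a far larger factor than that of Igfbp6. The small distance reflects the added 1, which compresses low values on the log2 scale. Igfbp4 was at place 109 of 10870 genes by this distance (1.05) and Igfbp7 at place 6961 (2.03).

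The other 3 binding proteins were near or at 0. Igfbp3 (chr11:7206086-7213923, minus strand), the main IGF carrier of blood, had 4 reads in parental cells (RPKM 0.146) and 7 with the vector (0.314), against 0 for exon 3 and 4 for exon 2 (0.203). Igfbp2 (chr1:72824503-72852474, plus strand), a carrier of fetal tissues and brain, had 0 reads in both controls, 2 for exon 3 (0.0928) and 3 for exon 2 (0.145). Igfbp5, its neighbour on the chromosome, was listed at 0 in all 4 libraries, which allows an RPKM of 0.118 in the parental line and up to 0.164 in the exon 2 knockout at its annotated coding length of 816 bases. These counts are at the limit of detection, and no fold is given for them. A low value in this table need not mean little RNA for every gene, since Gapdh, a glycolytic enzyme used by all cells, was at 2.93 to 5.32 while Actb was at 1376 to 1968.

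The summed RPKM of the 6 binding proteins was 647 (parental) and 507 (vector) in the controls, and 1114 (exon 3) and 696 (exon 2) in the knockouts. Both knockouts were above both controls, the exon 2 knockout by little, and this separation was lost under quantile normalization and under the correction for GC content and length (log2 differences 0.40 and 0.37, exact permutation p 0.667 in both). The mean was 577 ± 98.9 (SD, n = 2) in controls and 905 ± 296 (SD, n = 2) in knockouts, a log2 difference of 0.62 and an exact two-sided permutation p of 0.333. No smaller p can be had from 2 libraries against 2. Without the exon 3 knockout it was 0.28 and without the exon 2 knockout 0.96. The makeup of the summed RPKM also differed between libraries. Igfbp4 made up 27.4% of it in parental cells and 49.4% with the vector, 66.2% for exon 3 and 36.8% for exon 2. Igfbp7 made up 68.2%, 46.5%, 27.1% and 61.1% in the same order. The ratio of Igfbp4 to Igfbp7 RPKM was 0.402 (parental), 1.06 (vector), 2.44 (exon 3) and 0.602 (exon 2). By this ratio the exon 2 knockout lay between the 2 controls.

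**Figure D4:**
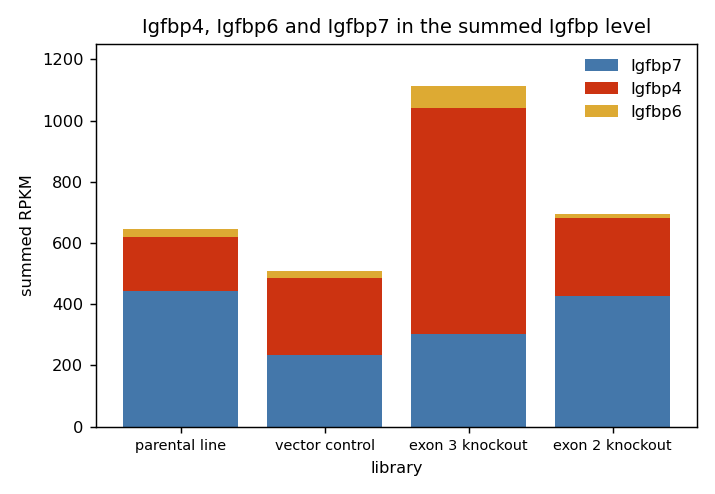
Summed RPKM of the binding proteins in each library as stacked bars from 0, divided into Igfbp7, Igfbp4 and Igfbp6. The bars reach 647, 507, 1114 and 696, and Igfbp4 is the greatest part in the vector control and the exon 3 knockout.

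The rest of the pathway was described from a list of 55 genes, of which 52 were in the table and 39 were tested. None was called in limma, 25 were lower and 14 higher in the knockouts, and the median log2 difference was -0.10, close to the -0.08 of all genes tested. At an unadjusted p under 0.05 there were 4 lower and 0 higher, against 13.8% and 5.32% of all tested genes. Both knockouts were below both controls for 11 of the 39 and above for 5, against 31.2% and 21.9% of all tested genes. Of the receptors, Igf1r was at an RPKM of 16.5 (parental), 6.43 (vector), 5.91 (exon 3) and 10.2 (exon 2), with a difference not past the threshold (log2 difference -0.37, SE 0.44, adjusted p 0.657 in limma). Insr, the insulin receptor, was at 12.7, 5.91, 5.60 and 6.36 in the same order (-0.48, SE 0.39, adjusted p 0.511). Both receptors were highest in the parental line. The vector control was 1.24 lower than the parental line in log2 for Igf1r and 0.98 lower for Insr, so the controls differed from each other by more than the difference between the groups.

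The 17 genes of PI3-kinase and Akt signalling were all tested, with 11 lower and 6 higher. Pik3r3, a regulatory subunit of PI3-kinase, was the only one of the 39 at least 2-fold lower in all 4 pairs, as were 1.73% of all tested genes. Its RPKM was 6.36 (parental) and 10.2 (vector) in the controls, and 2.20 (exon 3) and 1.70 (exon 2) in the knockouts (log2 difference -1.63, SE 0.37, adjusted p 0.102 in limma). The knockouts were below the controls without overlap, but the change did not pass the threshold. Also lower at an unadjusted p under 0.05, and named after their values were seen, were the catalytic subunit Pik3ca and the secreted protease Htra3. Pik3ca was at an RPKM of 28.3 (parental) and 31.6 (vector) against 13.3 (exon 3) and 15.9 (exon 2) (log2 difference -0.99, SE 0.31, adjusted p 0.153 in limma). Of the cutters of binding proteins and their inhibitors, 3 of 7 were tested, with 2 lower and 1 higher. The protease Htra1 was abundant in all 4 libraries (387 to 687), while Pappa, which cuts Igfbp4, was at 0 in 3 libraries and at 0.00913 in the exon 2 knockout. Among the 9 adaptors that couple the receptors to signalling, 7 were tested, with 6 lower and 1 higher. The 3 binders of Igf2 mRNA divided into 1 lower and 2 higher, and the 4 genes of the mannose 6-phosphate route that Igf2r serves into 2 lower and 2 higher. Of 9 imprinted genes, 3 were tested, with 1 lower and 2 higher. These counts state directions of values that did not pass the test.

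**Figure D5:**
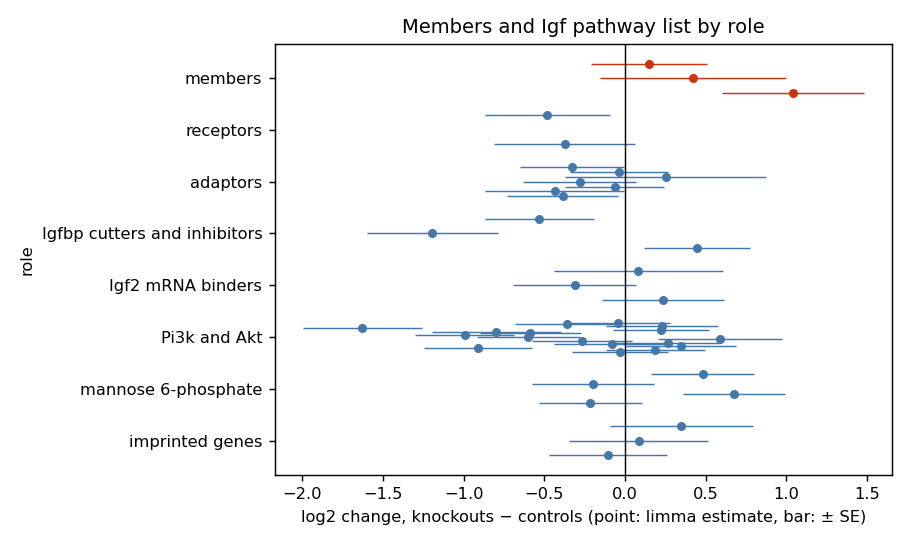
Log2 difference (knockouts minus controls, log2(RPKM + 1) scale) of the tested genes by role, as limma estimates (points) with SE (bars), with the members on their own row. The 3 members lie between 0.15 and 1.04, and the 39 pathway genes between -1.63 (Pik3r3) and 0.67 (Gnptg).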

How the data were processed

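RNA-seq libraries of 4 mouse mammary tumor cell lines were grouped by their titles into 2 controls and 2 knockouts. The 2 libraries of a group came from different lines and are not replicate cultures of 1 line, so their spread includes differences between lines. The limma p-values rest on that spread together with the spread of other genes. They do not measure the spread between replicate cultures. The authors deposited RPKM values on a linear scale, which were not rescaled between libraries except in the alternatives. The submitters' processing notes name CASAVA 1.8, GSNAP and GRCm38, with no role for each. The labels name a stranded total RNA kit and the methods a TruSeq RNA kit. The strand setting and the counting rule are not given in the sources used here. Of the columns of per-sample values, 0 were left unmatched.

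Each RPKM column was brought to whole reads through shared gene lengths and library totals. With a tolerance of 0.001 reads, 100% of genes came out whole, and 57.7% of lengths equalled an annotated coding length (GENCODE M21, GRCm38). The totals behind RPKM were 31235456 (parental), 25396254 (vector control), 23474246 (exon 3 knockout) and 22472024 (exon 2 knockout). For Igf1, Igf2 and Igfbp3 the reads rest on the smallest whole length. Genes with a mean RPKM of at least 1 were tested as log2(RPKM + 1) with limma 3.58.1 with a trend (R 4.3.3), knockouts against controls, with Benjamini-Hochberg adjusted p over all 10871 genes and a threshold of 0.05. A log2 change on this scale understates that of low genes. The steps were tested on simulated data. Figures, exact permutation tests and intervals used Python 3.11.15, numpy 2.4.6, pandas 2.3.3 and scipy 1.17.1.

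Members and lists were chosen with earlier results of these data known. The genes named were the 9 members, S100a4, Igf1r, Insr, any pathway gene past the threshold or at least 2-fold apart in all 4 pairs, and the 3 genes most like the member of widest range. Others are named as chosen after their values were seen. Some genes are not reported here by name and enter only counts and medians. H19, Meg3 and Airn were not analysed here. Alternatives were other pseudocounts, filters and scalings, limma with no trend, limma with a robust prior, voom on the recovered reads, a correction for GC content and length by loess, 3-fold in place of 2-fold and leaving out each library.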

Additional observations from a re-analysis of the deposited data

Results flagged for a closer look

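Igfbp6 was flagged because the 2 knockouts lay on opposite sides of the controls. The exon 3 knockout was above both controls and the exon 2 knockout below both, and the 2 differed by 2.31 on the log2(RPKM + 1) scale (RPKM 73.9 against 14.2). The difference was not tested, since each knockout has 1 library, and 7.88% of the genes tested had this arrangement.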

How the results depend on the processing

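No paired analysis was possible because the replicate numbers follow the order of deposition and pair no libraries. The count of members called was 0 in all 9 alternatives that kept all 4 libraries. The log2 difference of Igfbp4 was 0.78 to 1.16 over those 9 (adjusted p 0.193 to 0.457 in limma) and 0.28 to 1.80 when a library was left out. The median of all genes tested moved from -0.08 to 0.03 under median ratio scaling and under the correction for GC content and length, and to 0.04 under quantile normalization. Igfbp7 (0.15) reversed to -0.093 under that correction and -0.061 under quantile normalization, and ran from -0.30 without the vector control to 0.60 without the parental line, with -0.094 without the exon 2 knockout. Igfbp6 (0.42) reversed to -0.73 without the exon 3 knockout and was 1.57 without the exon 2 knockout. The count of members with both knockouts on 1 side of both controls went from 1 to 0 under that correction and under quantile normalization. With no filter it was 3 of 8 (Igf2r, Igfbp2 and Igfbp4), and Igfbp2 had at most 3 reads in a library. Without each library in turn it was 2, but 1 sample set against 2 separates more easily than 2 against 2. The share over all genes was given for the main setting only, at 31.2% below and 21.9% above. The counts in the other settings have no share of their own to be read against. The median of the members was 0.16 under that correction, 0.15 with no filter, when 8 members were included, and 0.22 to 1.57 when a library was left out. Members at least 2-fold apart in all pairs numbered 0, and 0 to 2 when a library was left out (Igfbp4 and Igfbp6 without the exon 2 knockout). Pathway genes called numbered 1 with a robust prior (Pik3r3) and 0 in the other alternatives that kept all 4 libraries. The summed Igfbp difference was 0.37 to 0.74 over its alternatives and 0.28 to 0.96 when a library was left out. Over all genes, 2 were called as reported, 285 with a robust prior and 32 with a filter at a mean RPKM of 5. With a pseudocount of 0.1 or quantile normalization 1 was called. With no filter, median ratio scaling, the GC correction or voom 0 were called. S100a4 passed the threshold with the filter at a mean RPKM of 5, quantile normalization and a robust prior. The cause of these shifts was not tested. A fit without 1 library leaves 1 sample in a group, so its variance is taken from the other group and, in limma, from other genes. No p-values or calls are given for those fits.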
